A study of Mus musculus with 8 samples.

Results

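Proestrus and metestrus were compared as one side with estrus and diestrus as the other in RNA sequencing of the mouse uterus. The question is which genes have 2 high and 2 low stages in each estrous cycle. The 4 libraries of proestrus and metestrus form one side and the 4 of estrus and diestrus the other, so the comparison uses all 8 libraries of the series. The tissue was the uterus of ICR females (mice of an outbred stock) aged 6 to 8 weeks, with no treatment or genetic change named. The 4 groups differ in the stage read from cells in a vaginal smear, and each has 2 libraries, called 1 and 2 below. The deposited values are read counts per gene. Of 52308 genes in the table, 18114 had enough counts to be tested, and the other 34194 were not.

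In the mouse cycle, estrogen from growing ovarian follicles peaks in proestrus, ovulation follows, and progesterone from new corpora lutea is higher in metestrus and diestrus. Estrogen makes the uterine lining swell, divide and secrete, while progesterone opposes that growth and changes the stroma. A gene with a single wave has 1 high and 1 low phase per cycle. The contrast studied here averages proestrus with metestrus and estrus with diestrus. A single wave that neighbouring stages share evenly cancels in it, while a wave centred on 1 stage cancels only in part. Called genes can thus be those whose stages alternate, those with 1 stage far from the others, or those that fall unevenly around the cycle.

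Library totals lay between 17863546 and 21896786 counts. Levels are given as CPM, counts divided by the library total and scaled for composition. Differences are log2 values, proestrus and metestrus minus estrus and diestrus, as estimate ± SE from an edgeR quasi-likelihood model with 1 coefficient per stage fitted to all 8 libraries. A gene was called at an adjusted p under 0.05 over all genes tested. The labels do not say whether the 2 libraries of a stage came from separate animals. The spread behind each p-value is therefore that between these libraries alone and may be technical. H2-Eb1, an antigen presentation gene, had 38.7 and 3.08 CPM at proestrus, 176 and 6.87 at estrus and 4.51 and 89.8 at metestrus. At diestrus it had 128 and 125 CPM. Whether such gaps within a stage come from separate animals was not tested. In bulk tissue fewer cells of a type and less RNA per cell cannot be told apart. The libraries of diestrus differed most from each other: 1897 tested genes lay over 2-fold apart there, against 732 in proestrus, 617 in estrus and 293 in metestrus. The defining transcripts of uterine muscle, stroma and epithelium were present in every library. Markers of liver and of adipocytes, whose origin was not tested, were not evenly spread. The 10 liver genes, Alb among them, summed to 141 and 1.59 CPM at proestrus, 986 and 754 at estrus, 1.25 and 5.005 at metestrus and 3.73 and 5.699 at diestrus. All 10 were detected in both estrus libraries and in proestrus 1, and 3 to 5 of them were at 0 in each of the other 5 libraries. Of the adipocyte genes, Adipoq stood at 2.26 CPM in proestrus 1 and 4.88 CPM in metestrus 2, and Plin1 at 0.769 and 1.75 CPM there and at 0 in the other 6 libraries.

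The comparison called 3392 genes, 18.7% of those tested. Of these, 1685 (9.3%) were higher in proestrus and metestrus, with a median difference of 0.60, and 1707 (9.42%) were higher in estrus and diestrus, with a median of -0.88. For 2499 of the called genes the 4 stage means alternated, so that both stages of one side lay above both of the other. In the other 893 they did not alternate. Estrus gave the lowest mean of 1238 of the genes higher in proestrus and metestrus, and the highest mean of 1233 of those higher in estrus and diestrus. Diestrus had that place for 438 and 470. In 749 and 795 called genes all 4 libraries of the higher side lay above all 4 of the other. Over all tested genes, called or not, such separation held for 1092 (6.03%) and 1138 (6.28%).

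The steps between stages were of unequal size. Estrus against proestrus called 15.1% of the tested genes, metestrus against estrus 36.2%, diestrus against metestrus 0.508% and proestrus against diestrus 22.4%. The pairing of proestrus with estrus against metestrus with diestrus called 35.4%, and 1579 genes were called in both pairings. The count of 3392 moved with the choice of libraries. It was 1394 and 886 without proestrus 1 and 2, 843 and 932 without estrus 1 and 2, 647 and 569 without metestrus 1 and 2, 3617 without diestrus 1 and 5451 without diestrus 2. A model with 2 groups of 4 and no term for stage, in which differences between the stages of a side count as spread, called 9 genes. Of 135 called genes examined one by one, 78 kept their call without each library in turn, and the others ended it at adjusted p up to 0.113.

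**Figure D1:**
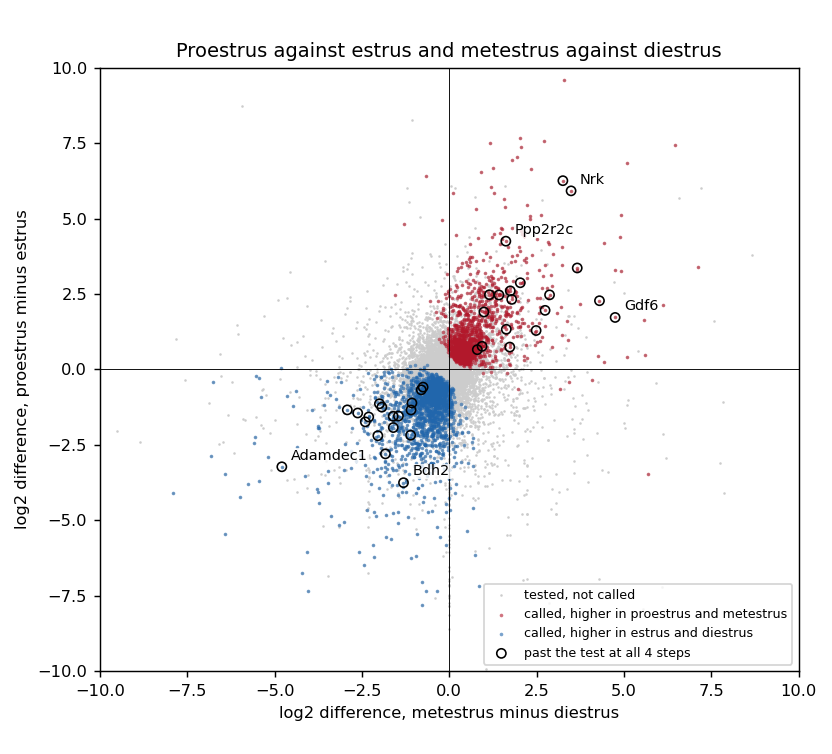
Each point is a tested gene, with the log2 difference of metestrus minus diestrus on the x axis and of proestrus minus estrus on the y axis. Called genes lie mainly at upper right (higher in proestrus and metestrus) and lower left (higher in estrus and diestrus), circles mark the 37 genes past the test at all 4 steps, and 6 genes beyond 10 on either axis are not shown.

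The strictest form of a double wave is a gene that differs in alternating direction at every one of the 4 steps. This held for 37 genes (0.204%), 19 higher in proestrus and metestrus and 18 higher in estrus and diestrus, and in all 37 the libraries of the sides did not overlap. This count rests on the small step from metestrus to diestrus. Only 92 genes passed there, and the count of 37 went to 1 and 1 without proestrus 1 and 2, 2 and 2 without estrus 1 and 2, 0 and 0 without metestrus 1 and 2, 84 without diestrus 1 and 499 without diestrus 2. At an unadjusted p under 0.05 by edgeR, 623 genes alternated at every step with all 8 libraries, and 380 and 319 without metestrus 1 and 2. With all 8 libraries, against the 37 of edgeR, DESeq2 called 244 and limma-voom 32.

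Nrk, a kinase related to the germinal centre kinases, had 43.4 and 43.3 CPM at proestrus, 1.0005 and 0.413 at estrus, 26.7 and 30.03 at metestrus and 2.38 and 2.67 at diestrus (ENSMUSG00000052854, chromosome X, 138914430 to 139010532, GRCm38). It was high, then nearly absent, then high again, with a wide gap between the sides (4.704 ± 0.23, adjusted p = 0.00119). Sh3gl2, the membrane-bending protein endophilin A1, had 39.6 and 41.7 CPM at proestrus, 5.503 and 5.58 at estrus, 35.5 and 39.3 at metestrus and 7.197 and 11.1 at diestrus. Its proestrus and metestrus levels were close to each other (2.45 ± 0.15, adjusted p = 0.00156). Plod2, a lysyl hydroxylase that prepares collagen for cross-linking, had 232 and 262 CPM at proestrus, 61.4 and 70.4 at estrus, 160.3 and 153 at metestrus and 75.3 and 82.4 at diestrus, with no overlap between the sides (1.45 ± 0.09, adjusted p = 0.001497). P2ry14, a receptor for extracellular UDP-sugars, had 231 and 268 CPM at proestrus, 29.4 and 18.997 at estrus, 127 and 192 at metestrus and 8.73 and 16.4 at diestrus, and every value of one side was over 4-fold above every value of the other (3.51 ± 0.27, adjusted p = 0.00259). Plk2, a polo-like kinase, had 201 and 180.2 CPM at proestrus, 38.5 and 30.1 at estrus, 169 and 279 at metestrus and 22.6 and 38.6 at diestrus (2.67 ± 0.24, adjusted p = 0.00335). Estrus and diestrus overlapped at the low level.

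Ptpn5, the phosphatase STEP, had 143 and 166 CPM at proestrus, 2.05 and 1.96 at estrus, 190.1 and 128 at metestrus and 22.9 and 10.49 at diestrus, and was at its lowest in estrus (4.75 ± 0.30, adjusted p = 0.00156). The immunoglobulin superfamily gene Igsf10 had 98.7 and 123 CPM at proestrus, 49.2 and 38.9 at estrus, 132 and 147 at metestrus and 38.2 and 51.8 at diestrus, without overlap between the sides (1.48 ± 0.14, adjusted p = 0.00403). Tpbgl, a leucine-rich repeat gene, lay at 16.3 to 27.02 CPM in proestrus and metestrus and 3.51 to 5.76 CPM in estrus and diestrus (2.18 ± 0.17, adjusted p = 0.00259). Of the exonic bases of Tpbgl 38.6%, and of Igsf10 19.8%, are shared with genes of the opposite strand, and no source used here gives the strand setting of the counting. The share is also high for Irs1 (30.9%), Cdkn1c (30.7%), Rbl2 (21%), Dbp (18%) and Ccne2 (17.4%), described below. Pgr, Ppp2r2c and Gdf6 also belong to these 19. The rest, named after their values were seen, were Arl4c, Col6a4, Ctr9, Dbpht2, Gm16485, Mgam, Prok2 and Tenm4. Gdf6, a bone morphogenetic protein, was higher in metestrus (8.44 and 13.6 CPM) than in proestrus (5.28 and 4.96 CPM). The estrus libraries had 1.85 and 1.24 CPM and those of diestrus 0.405 and 0.403 CPM (3.24 ± 0.25, adjusted p = 0.00259).

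Among genes with the opposite pattern, Adamdec1, a metalloprotease of the ADAM family, had 2.05 and 2.98 CPM at proestrus, 26.4 and 20.8 at estrus, 0.357 and 0.513 at metestrus and 13.1 and 11.3 at diestrus (ENSMUSG00000022057, chromosome 14, 68563380 to 68582095). Estrus and diestrus lay together above the other stages, and metestrus was the lowest (-4.01 ± 0.21, adjusted p = 0.00119). Cyp27a1, the sterol 27-hydroxylase, had 21.4 and 27.3 CPM at proestrus, 77.7 and 65.3 at estrus, 25.8 and 22.2 at metestrus and 78.8 and 67.3 at diestrus. Its 2 rises were nearly equal (-1.58 ± 0.12, adjusted p = 0.00259; estrus minus proestrus 1.55 ± 0.17, diestrus minus metestrus 1.60 ± 0.17). Cyp2d22, a cytochrome P450, had 12.7 and 13.5 CPM at proestrus, 49.6 and 49.9 at estrus, 13.2 and 12.3 at metestrus and 33.8 and 43.7 at diestrus, again without overlap (-1.76 ± 0.11, adjusted p = 0.00156). Sord, the sorbitol dehydrogenase of the polyol pathway, had 17.9 and 18.2 CPM at proestrus, 87.7 and 76.1 at estrus, 14.4 and 16.2 at metestrus and 33.6 and 32.4 at diestrus. Sord differed by -1.64 ± 0.09, adjusted p = 0.00119, with estrus above diestrus. Bdh2, a cytosolic short-chain dehydrogenase, had 2.31 and 2.83 CPM at proestrus, 33.4 and 36.1 at estrus, 3.97 and 4.66 at metestrus and 11.2 and 10.2 at diestrus (-2.53 ± 0.13, adjusted p = 0.00119), in the same order.

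Cyp27a1, Cyp2d22, Sord and Bdh2 are also expressed by the liver, whose marker transcripts were high in estrus. In the diestrus libraries the liver genes summed to 3.73 and 5.70 CPM, with Apoa1, Apoc3 and Cyp2e1 at 0, and in proestrus 1 to 140.5 CPM. The part of liver RNA in these 4 results was not tested. Arrdc3, an arrestin-domain adaptor of ubiquitin ligases, had 45.2 and 44.5 CPM at proestrus, 117 and 110.4 at estrus, 31.9 and 31.1 at metestrus and 69.6 and 65.1 at diestrus, with replicates that nearly coincide (-1.22 ± 0.07, adjusted p = 0.00119). Ptger2, the prostaglandin E2 receptor EP2, had 1.38 and 1.49 CPM at proestrus, 4.202 and 4.39 at estrus, 1.696 and 1.63 at metestrus and 7.69 and 8.77 at diestrus, and was highest in diestrus (-1.94 ± 0.16, adjusted p = 0.00318). The other members on this side, named after their values were seen, were Ccbe1, Fam214a, Heca, Ip6k2, Mr1, Pik3ip1, Ptpro, Ramp1, Rgs2, Sesn1 and Sult1a1. Ramp1, a partner of the calcitonin-like receptor in sensing CGRP, had 13.5 and 14.3 CPM at proestrus, 47.1 and 45.9 at estrus, 19.4 and 18.7 at metestrus and 130.1 and 71.3 at diestrus. It differed by -2.07. Its relative Ramp3, which turns the same receptor into an adrenomedullin receptor, had the reverse pattern, with 323 and 338 CPM at proestrus, 34.4 and 26.2 at estrus, 237 and 235 at metestrus and 19.9 and 50.2 at diestrus. Ramp3 differed by 3.100 ± 0.29, adjusted p = 0.00375. The calls of P2ry14, Ramp3, Cyp2d22, Sh3gl2, Cyp27a1, Plk2, Tpbgl and Igsf10 also held in the model with 2 groups of 4.

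**Figure D2:**
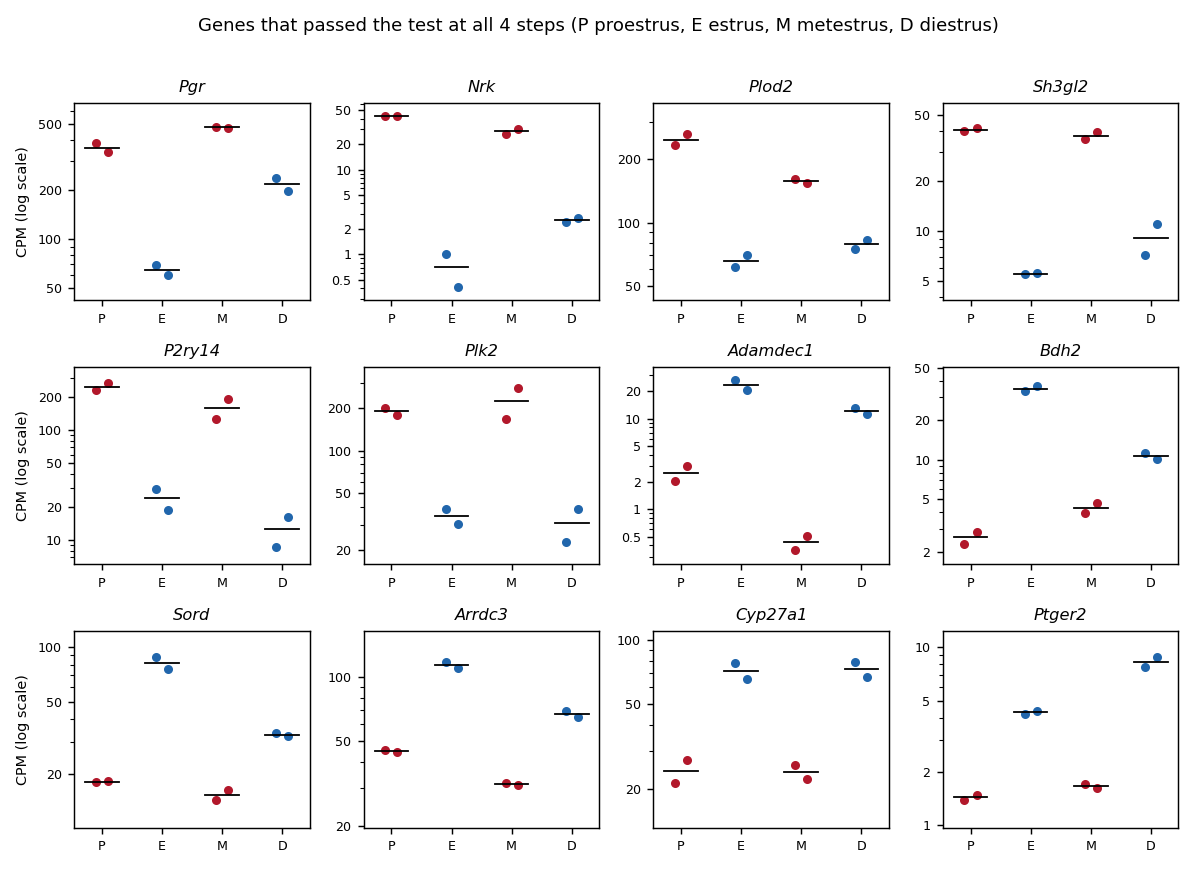
Level in CPM (log scale) of 12 genes that passed the test at all 4 steps, by stage on the x axis, with a point per library and a line at the mean of the 2 libraries. Red points are proestrus and metestrus, blue points estrus and diestrus; in each panel the 4 red points lie on one side of the 4 blue ones.

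Among 9 steroid receptor genes, Pgr was the one called higher in proestrus and metestrus, and Pgrmc1 the one called lower. Each is 11.1% of the list, near the 9.3% and 9.42% called in these directions over all genes. Pgr, the progesterone receptor and a standard estrogen target, had 385 and 337 CPM at proestrus, 69.03 and 60.7 at estrus, 480.5 and 478 at metestrus and 237 and 196 at diestrus (ENSMUSG00000031870, chromosome 9, 8899833 to 8968611). The sides did not overlap and metestrus was the highest stage (1.81 ± 0.10, adjusted p = 0.00119). The range without each library in turn was 1.75 to 1.89, all past the test. Pgrmc1, a heme-binding membrane protein, had 140.3 and 144 CPM at proestrus, 204 and 229.8 at estrus, 126 and 128 at metestrus and 144 and 157 at diestrus, and proestrus 2 and diestrus 1 overlapped (-0.42 ± 0.08, adjusted p = 0.0165). Its call ended at 0.0561 to 0.0729, without proestrus 1, proestrus 2, estrus 2, metestrus 1 or metestrus 2. Esr1, which encodes estrogen receptor alpha, had 443 and 457 CPM at proestrus, 335 and 301 at estrus, 447 and 464 at metestrus and 459.8 and 335 at diestrus and did not pass (0.35 ± 0.12, adjusted p = 0.0808). It passed by DESeq2 (0.0278) and without diestrus 1 (0.0108). Nr3c1, Nr3c2, Esr2, Pgrmc2 and Gper1 did not pass, with differences from -0.33 ± 0.25 for Nr3c2 to 0.58 ± 0.67 for Esr2, and Gper1 passed without diestrus 2 (0.0298).

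Chaperones hold steroid receptors ready to bind ligand. Of 20 receptor coregulators and chaperones, 6 (30%, against 9.3% of all genes) were called higher in proestrus and metestrus. The other 14 did not pass, and the list median was 0.08, against -0.03 over all genes. At an unadjusted p under 0.05, 7 were higher and 5 lower. Hsp90aa1, a heat shock protein 90, had 529.7 and 492 CPM at proestrus, 224 and 319 at estrus, 1134 and 1055 at metestrus and 579 and 573 at diestrus (0.92 ± 0.13, adjusted p = 0.00874). The co-chaperones Stip1 and Ptges3 differed by 0.89 ± 0.09 and 0.59 ± 0.09 (adjusted p = 0.00475 and 0.0107). Metestrus was highest and estrus lowest in these 3 genes. Diestrus lay above proestrus in Hsp90aa1 and Stip1. The count of 6 was 3, 3, 3, 3 and 2 without proestrus 1, proestrus 2, estrus 1, metestrus 1 and metestrus 2, and up to 3 genes were called lower without 1 library. Ptges3 ended at 0.0565 without metestrus 2.

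Of the 4 FAM3 genes, for secreted cytokine-like proteins, Fam3c and Fam3b (50%, against 9.3% of all genes) were called higher in proestrus and metestrus. The stages did not alternate in either. Fam3c had 141 and 124 CPM at proestrus, 79.6 and 85.4 at estrus, 64.5 and 58.9 at metestrus and 43.8 and 52.8 at diestrus. Fam3c differed by 0.52 ± 0.09, adjusted p = 0.0176, falling from stage to stage around the cycle. Fam3b had 42.3 and 21.2 CPM at proestrus, 15.1 and 8.36 at estrus, 0.491 and 0.513 at metestrus and 0.08997 and 0.151 at diestrus (1.73 ± 0.40, adjusted p = 0.0331), falling in the same order. Fam3d, listed as Oit1 in the annotation, had 88.1 and 74.3 CPM at proestrus, 95.5 and 95.9 at estrus, 7.59 and 7.91 at metestrus and 23.8 and 6.71 at diestrus and did not pass (-0.61 ± 0.35, adjusted p = 0.252), except without diestrus 2 (0.00194). Fam3a did not pass (-0.10 ± 0.16, adjusted p = 0.684). The calls ended at 0.0554 to 0.0729, without proestrus 1, estrus 1, estrus 2, metestrus 1 or metestrus 2 for Fam3c, and at 0.0524 to 0.106, without proestrus 1, estrus 1, estrus 2, metestrus 1, metestrus 2, diestrus 1 or diestrus 2 for Fam3b, and Fam3b was not called by limma-voom (0.174).

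The largest differences toward proestrus and metestrus, among called genes with separated sides and at least 5 CPM, were 3.04 to 4.75 for the first 12. The neurotrophin receptor Ngfr had 591 and 661 CPM at proestrus, 7.05 and 2.99 at estrus, 429 and 465 at metestrus and 161 and 97.7 at diestrus. Ngfr differed by 4.37 ± 0.30, adjusted p = 0.00219, with estrus lowest. Nppc, which encodes C-type natriuretic peptide, had 26.5 and 21.5 CPM at proestrus, 0.3001 and 0.0516 at estrus, 4.37 and 2.57 at metestrus and 1.12 and 0.656 at diestrus (4.49 ± 0.41, adjusted p = 0.003702), with proestrus far above metestrus. Crtac1, a secreted cartilage protein, had 62.6 and 38.9 CPM at proestrus, 3.85 and 1.65 at estrus, 52.99 and 19.8 at metestrus and 0.3599 and 3.08 at diestrus. Crtac1 differed by 4.31 ± 0.66, adjusted p = 0.0111 and lost its call at 0.0543 without estrus 2. A2m, a broad protease inhibitor, had 561 and 768 CPM at proestrus, 49.9 and 29.5 at estrus, 212 and 301 at metestrus and 10.3 and 117 at diestrus (3.04 ± 0.69, adjusted p = 0.03096), and its call ended at 0.0646 to 0.104, without proestrus 1, proestrus 2, estrus 1, estrus 2, metestrus 1 or metestrus 2. Tmprss11a, a membrane serine protease, lay at 7.79 to 13.002 CPM in proestrus and metestrus and 0.103 to 2.699 CPM in estrus and diestrus (3.52 ± 0.67, adjusted p = 0.0199; call lost at 0.0552 to 0.0755, without proestrus 2, estrus 2, metestrus 1 or metestrus 2). Ppp2r2c, a regulatory subunit of protein phosphatase 2A, had the smallest p of all separated genes on this side, with 21.8 and 24.02 CPM at proestrus, 1.05 and 1.34 at estrus, 42.4 and 43.5 at metestrus and 13.6 and 14.4 at diestrus. Ppp2r2c differed by 2.94 ± 0.12, adjusted p = 0.00115. Shisa2, an inhibitor of Wnt and FGF receptor maturation, had 75.2 and 59.5 CPM at proestrus, 26.4 and 22.7 at estrus, 29.95 and 29.5 at metestrus and 4.77 and 4.14 at diestrus (2.096 ± 0.12, adjusted p = 0.00119), with diestrus the lowest stage.

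Toward estrus and diestrus the largest differences included genes with diestrus 1 far above diestrus 2. Ctla2a, a cysteine protease inhibitor with a close paralog, had 30.4 and 29.6 CPM at proestrus, 296 and 478 at estrus, 41.6 and 35.6 at metestrus and 2943 and 399 at diestrus. Ctla2a differed by -4.56 ± 0.63, adjusted p = 0.00874. Cyp26a1, which breaks down retinoic acid, had 0.103 and 0.199 CPM at proestrus, 0.9504 and 2.53 at estrus, 0.491 and 0.76999 at metestrus and 106 and 4.29 at diestrus (-4.95 ± 1.16, adjusted p = 0.0331). Cwh43 had 0.513 and 0.199 CPM at proestrus, 3.101 and 2.17 at estrus, 0.179 and 0.214 at metestrus and 39.7 and 5.95 at diestrus. Cwh43 differed by -4.85 ± 0.73, adjusted p = 0.0109. In these 3 genes diestrus 1 stood over 6-fold above diestrus 2. The calls ended at 0.0556 without metestrus 1 and 0.0594 without metestrus 2 for Ctla2a, at 0.0782 to 0.113, without proestrus 1, proestrus 2, estrus 1, estrus 2, metestrus 1 or metestrus 2 for Cyp26a1 (0.317 by limma-voom), and at 0.0509 to 0.0628, without proestrus 2, metestrus 1 or metestrus 2 for Cwh43 (0.0750 by limma-voom). Inmt, an amine methyltransferase, had 2.102 and 0.844 CPM at proestrus, 67.2 and 61.9 at estrus, 0.223 and 0.428 at metestrus and 51.4 and 5.55 at diestrus (-5.94 ± 0.82, adjusted p = 0.00873; call lost at 0.0565 without metestrus 1 and 0.0566 without metestrus 2).

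Other large differences of this direction were greatest in estrus. Trim63, a ubiquitin ligase known from wasting muscle, had 0.8204 and 0.695 CPM at proestrus, 32.5 and 39.3 at estrus, 0.982 and 1.63 at metestrus and 4.59 and 4.59 at diestrus (-3.68 ± 0.20, adjusted p = 0.00119). Gpnmb, a lysosomal glycoprotein of macrophages, had 1.44 and 2.03 CPM at proestrus, 111 and 157 at estrus, 9.02 and 10.6 at metestrus and 14.4 and 27.7 at diestrus. Gpnmb differed by -3.68 ± 0.27, adjusted p = 0.00256. Pamr1, a secreted protein with a protease-like domain, had 13.9 and 17.8 CPM at proestrus, 383 and 457 at estrus, 27.8 and 21.3 at metestrus and 166 and 50.7 at diestrus (-3.43 ± 0.38, adjusted p = 0.00531). Mmp3, stromelysin 1, had 0.769 and 2.63 CPM at proestrus, 56.3 and 60.7 at estrus, 8.12 and 12.7 at metestrus and 28.3 and 29.7 at diestrus. Mmp3 differed by -3.28 ± 0.33, adjusted p = 0.00442. Estrus was highest and diestrus second in all 4 genes. Kcnip2, a potassium channel partner, lay at 0.596 to 1.497 CPM in proestrus and metestrus and 1.75 to 49.8 CPM in estrus and diestrus (-3.201 ± 0.50, adjusted p = 0.0117; call lost at 0.0553 to 0.0624, without proestrus 2, metestrus 1 or metestrus 2; 0.0580 by limma-voom). Coch, a matrix protein, lay at 1.74 to 3.53 CPM in proestrus and metestrus and 6.91 to 35.5 CPM in estrus and diestrus (-2.85 ± 0.50, adjusted p = 0.0155; call lost at 0.0516 to 0.0764, without proestrus 1, proestrus 2, estrus 1, estrus 2, metestrus 1 or metestrus 2). Gem, a small GTPase that restrains calcium channels, had 16.9 and 16.6 CPM at proestrus, 75.98 and 73.7 at estrus, 32.1 and 27.7 at metestrus and 52.1 and 46.5 at diestrus (-1.44 ± 0.09, adjusted p = 0.00144).

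Cholesterol synthesis was, of the 66 gene lists examined, the one with the highest share of called members. Of 22 genes of the pathway and its control, 19 were called higher in proestrus and metestrus, against 9.3% of all genes, and 3 did not pass. The median difference was 1.10, with 1.76 between proestrus and estrus and 0.62 between metestrus and diestrus, and in 12 the sides did not overlap. Hmgcs1, which makes HMG-CoA early in the pathway, had 139 and 137 CPM at proestrus, 40.5 and 30.6 at estrus, 59.1 and 68.1 at metestrus and 46.8 and 37.8 at diestrus (1.27 ± 0.12, adjusted p = 0.00403), with proestrus highest, metestrus second and estrus and diestrus overlapping at the low level. Srebf2, the transcription factor that switches the pathway on when sterols are low, had 274 and 243 CPM at proestrus, 118 and 91.3 at estrus, 170.5 and 193 at metestrus and 119.7 and 107 at diestrus. Srebf2 differed by 0.99 ± 0.11, adjusted p = 0.00548. The later enzymes Nsdhl and Lss differed by 1.098 ± 0.12 and 1.13 ± 0.13 (adjusted p = 0.00514 and 0.00555). The count of 19 was 11, 11, 11, 9 and 7 without proestrus 1, proestrus 2, estrus 2, metestrus 1 and metestrus 2 and at most 20. The median stayed between 0.96 and 1.23.

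Srebf2 protein acts through sterol response elements in promoters, and NF-Y, which binds CCAAT boxes, often acts beside it. Promoters from RefSeq (GRCm38.p6, 250 bases before to 50 after the start) were found for 15 of the 22 genes, as 18 promoters. The letters TCACNCCAC, on either strand, occurred in 1 of these (5.56%) and in 1.24% of all 32851 promoters. The letters CCAAT occurred in 15 (83.3%), against 37.4% of all. The promoter of Hmgcs1 (chr13:119690101-119690400, plus strand) is shown because it held the match, in capitals, which begins at base -137 from the start.
Hmgcs1: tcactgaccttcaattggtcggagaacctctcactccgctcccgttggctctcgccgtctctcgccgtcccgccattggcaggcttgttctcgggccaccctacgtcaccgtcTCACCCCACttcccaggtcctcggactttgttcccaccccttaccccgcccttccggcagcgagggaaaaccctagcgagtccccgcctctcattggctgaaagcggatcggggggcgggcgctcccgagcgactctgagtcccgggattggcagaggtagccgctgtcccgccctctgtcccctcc

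Secretory pathway genes move new proteins out of the endoplasmic reticulum (ER). Of 29 such genes, 21 (72.4%, against 9.3% of all genes) were called higher in proestrus and metestrus and 8 did not pass. The list median was 0.46, and the stage means alternated in 23. The differences were small and the replicates close. Kdelr2, a receptor that returns ER proteins from the Golgi, had 212 and 208 CPM at proestrus, 98.5 and 97.001 at estrus, 232 and 197 at metestrus and 161 and 162 at diestrus (0.76 ± 0.08, adjusted p = 0.00464). Sec24d, a cargo adaptor of the vesicles that leave the ER, had 206 and 197 CPM at proestrus, 91.1 and 78.4 at estrus, 239.9 and 211 at metestrus and 187 and 175 at diestrus. Sec24d differed by 0.78 ± 0.09, adjusted p = 0.00531. Creb3l1, a transcription factor that raises secretory capacity for collagen, had 153 and 174 CPM at proestrus, 75.1 and 48.1 at estrus, 239.6 and 209 at metestrus and 97.7 and 93.04 at diestrus (1.32 ± 0.15, adjusted p = 0.00558). In all 3 the 4 high libraries lay above the 4 low ones, and in Sec23a (0.70 ± 0.07, adjusted p = 0.00375) they overlapped. The count was 13, 12, 10, 10, 6 and 8 without proestrus 1, proestrus 2, estrus 1, estrus 2, metestrus 1 and metestrus 2, with a median of 0.44 to 0.49 in all fits without a library.

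Of 24 genes of ER folding and the unfolded protein response, 13 (54.2%, against 9.3% of all genes) were called higher. The other 11 did not pass, and the list median was 0.40. Dnajb11, a co-chaperone of the ER, had 151 and 142 CPM at proestrus, 83.6 and 93.6 at estrus, 178 and 180.5 at metestrus and 113 and 109 at diestrus. Dnajb11 differed by 0.71 ± 0.07, adjusted p = 0.00458, with separated sides. Creld2, secreted under ER stress, had 124 and 106 CPM at proestrus, 42.8 and 45.8 at estrus, 166 and 129 at metestrus and 106 and 63.2 at diestrus (1.09 ± 0.18, adjusted p = 0.01403), where proestrus 2 and diestrus 1 overlapped. Pdia4, a disulfide isomerase, and Canx, the lectin chaperone calnexin, were separated, at 0.57 ± 0.11 and 0.45 ± 0.09 (adjusted p = 0.0187 and 0.0202). The count of 13 was 2, 2, 1, 2, 1 and 2 without proestrus 1, proestrus 2, estrus 1, estrus 2, metestrus 1 and metestrus 2. Calls ended at 0.0617 without estrus 1, 0.0545 without estrus 2 and 0.0595 without metestrus 1 for Creld2, at 0.0541 to 0.0766, without proestrus 1, proestrus 2, estrus 1, estrus 2, metestrus 1 or metestrus 2 for Pdia4, and at 0.0543 to 0.0854, without proestrus 1, proestrus 2, estrus 1, estrus 2, metestrus 1 or metestrus 2 for Canx.

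The ER stress response element, bound by ATF6 with NF-Y, was searched as CCAAT, then 9 bases, then CCACG, on either strand. It occurred in 7 of 21 promoters of this list (33.3%; Calr, Canx, Creld2, Dnajc3, Hsp90b1, Hspa5 and Pdia6) and in 0.119% of all promoters. Each match also holds a CCAAT match. Among promoters of called genes with separated sides, it occurred in 4 of 707 for those higher in proestrus and metestrus (0.566%) and in 0 of 773 for the others. The promoters of Creld2 (chr15:88819396-88819695, plus strand; match from base -126) and Canx (chr11:50325624-50325923, minus strand; from -145) show the element in each orientation, with both outer parts in capitals.
Creld2: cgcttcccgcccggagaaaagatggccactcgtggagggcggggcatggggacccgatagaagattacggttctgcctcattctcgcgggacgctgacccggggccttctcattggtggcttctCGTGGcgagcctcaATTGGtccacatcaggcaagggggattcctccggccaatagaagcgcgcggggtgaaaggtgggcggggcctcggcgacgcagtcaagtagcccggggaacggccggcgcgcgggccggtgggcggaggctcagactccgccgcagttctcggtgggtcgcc
Canx: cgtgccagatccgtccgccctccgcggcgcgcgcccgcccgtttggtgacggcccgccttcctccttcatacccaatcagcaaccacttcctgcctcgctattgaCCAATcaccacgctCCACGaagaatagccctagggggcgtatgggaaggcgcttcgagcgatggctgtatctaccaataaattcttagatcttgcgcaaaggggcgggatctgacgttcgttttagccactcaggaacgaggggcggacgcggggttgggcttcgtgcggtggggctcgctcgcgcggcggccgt

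Genes of the collagen matrix and of its folding had more calls toward proestrus and metestrus than toward estrus and diestrus. Of 26 fibrillar collagen and matrix genes, 13 were called higher in proestrus and metestrus and 2 higher in estrus and diestrus, Postn and Col12a1 (median 0.60). These are 50% and 7.69% of the list, against 9.3% and 9.42% of all genes. Col6a3, a chain of collagen VI, had 1864 and 2115 CPM at proestrus, 227 and 158 at estrus, 2041 and 1903 at metestrus and 853 and 526 at diestrus. Col6a3 differed by 2.44 ± 0.20, adjusted p = 0.00301. Col6a2 and Col6a1, its partner chains, differed by 1.56 ± 0.16 and 1.26 ± 0.15 (adjusted p = 0.00458 and 0.00691), and all 3 had separated sides with estrus lowest. Eln, which encodes elastin, had 389 and 368 CPM at proestrus, 41.9 and 36.9 at estrus, 263 and 208 at metestrus and 268 and 138 at diestrus (1.74 ± 0.21, adjusted p = 0.00696), where diestrus 1 overlapped metestrus. Fbn2, a fibrillin of microfibrils, had 53.9 and 69.6 CPM at proestrus, 18.3 and 15.6 at estrus, 38.2 and 43.8 at metestrus and 35.04 and 33.1 at diestrus. Fbn2 differed by 1.07 ± 0.12, adjusted p = 0.00498. The median difference was 1.05 between proestrus and estrus and 0.21 between metestrus and diestrus. The count of 13 was 7, 6, 7, 6 and 7 without proestrus 1, proestrus 2, estrus 2, metestrus 1 and metestrus 2, and the 2 of the other direction became 1 to 5 without 1 library.

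Of 23 collagen folding and modifying genes, 10 were called higher and 1 lower (P3h2), with a median of 0.46. The shares are 43.5% and 4.35%, against 9.3% and 9.42% of all genes. Serpinh1, the collagen chaperone HSP47, had 1209 and 1271 CPM at proestrus, 413 and 493 at estrus, 2504 and 1896 at metestrus and 1867 and 1617 at diestrus (0.89 ± 0.13, adjusted p = 0.00972), and diestrus lay above proestrus. Fkbp14, a prolyl isomerase of the ER, had 62.04 and 67.7 CPM at proestrus, 5.55 and 6.19 at estrus, 92.2 and 82.2 at metestrus and 58.8 and 63.995 at diestrus. Fkbp14 differed by 1.99 ± 0.09, adjusted p = 0.00119, so that estrus alone stood apart. P3h1 and P4ha3, proline hydroxylases of collagen, differed by 0.82 ± 0.15 and 1.84 ± 0.35 (adjusted p = 0.0177 and 0.0206). Their calls ended at 0.0557 to 0.07004, without proestrus 2, estrus 1, estrus 2, metestrus 1 or metestrus 2 for P3h1, and at 0.0581 to 0.0763, without proestrus 1, proestrus 2, estrus 1, estrus 2, metestrus 1 or metestrus 2 for P4ha3. The count of 10 was 5, 3, 3, 3, 3 and 3 without proestrus 1, proestrus 2, estrus 1, estrus 2, metestrus 1 and metestrus 2.

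Of 23 matrix proteases and inhibitors, 10 were called higher in estrus and diestrus (Mmp2, Mmp3, Mmp9 to Mmp12, Mmp14, Mmp15, Adamts5 and the inhibitor Timp2). In the other direction 3 were called (Timp1, Adamts1 and Adamts4), and 10 did not pass, with a list median of -0.45. The shares called are 43.5% and 13%, against 9.42% and 9.3% of all genes. Mmp2, gelatinase A, had 206 and 224 CPM at proestrus, 447 and 491 at estrus, 379 and 364 at metestrus and 646 and 741 at diestrus (-1.01 ± 0.09, adjusted p = 0.00319). It alternated about a rising level, with diestrus the highest and no overlap. Mmp9, gelatinase B, had 8.72 and 8.73 CPM at proestrus, 68.4 and 65.7 at estrus, 10.1 and 12.2 at metestrus and 14.6 and 22.8 at diestrus. Mmp9 differed by -1.84 ± 0.16, adjusted p = 0.00319. Mmp11, stromelysin 3, had 46.7 and 49.3 CPM at proestrus, 1143 and 1377 at estrus, 36.7 and 23.9 at metestrus and 38.01 and 53.8 at diestrus (-2.66 ± 0.19, adjusted p = 0.00223), a gene of estrus. Adamts5, an aggrecanase, had 20.9 and 28.7 CPM at proestrus, 80.9 and 97.5 at estrus, 21.8 and 26.01 at metestrus and 36.2 and 31.8 at diestrus. Adamts5 differed by -1.18 ± 0.14, adjusted p = 0.00604. The count of 10 was 6, 6, 6, 5 and 5 without proestrus 1, proestrus 2, estrus 2, metestrus 1 and metestrus 2, and the 3 of the other direction became 0 to 4 without 1 library. Of the genes of hyaluronan, the synthases Has2 (6.15 to 12.9 CPM in proestrus and metestrus and 0.103 to 13.6 CPM in estrus and diestrus) and Has1 (1.84 to 3.897 CPM in proestrus and metestrus and 0.103 to 1.12 CPM in estrus and diestrus) were higher in proestrus and metestrus (2.98 ± 0.32, adjusted p = 0.00491 and 3.28 ± 0.46, adjusted p = 0.00905). Has2 was as high in diestrus as in metestrus and stood at 0.150 and 0.103 CPM in estrus. Cemip, which breaks hyaluronan down, was higher in estrus and diestrus (-2.02 ± 0.32, adjusted p = 0.0119; call lost at 0.0538 without proestrus 2 and 0.0578 without metestrus 2), with 50.2 and 51.6 CPM in estrus and 3.76 to 11.95 CPM elsewhere.

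**Figure D3:**
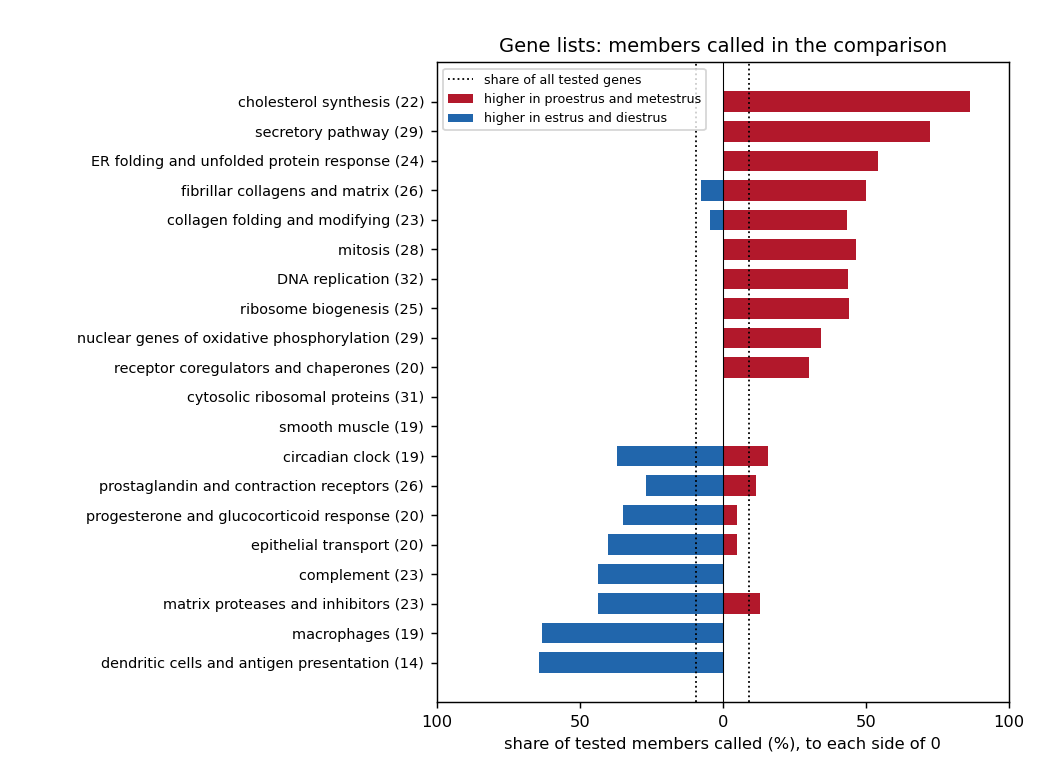
Share of the tested members of 20 gene lists called higher in proestrus and metestrus (red, to the right) or in estrus and diestrus (blue, to the left), with the number tested in brackets and dotted lines at the shares of all genes, 9.3% and 9.42%. Cholesterol synthesis and the secretory pathway reach farthest to the right, and dendritic cell and macrophage genes farthest to the left.

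Genes of cell division had a wide spread between replicates. Of 28 mitosis genes, 13 were called higher in proestrus and metestrus and 15 did not pass, and the stage means alternated in all 28 (median 1.79; 2.46 between proestrus and estrus, 1.22 between metestrus and diestrus). Cdk1, the kinase that starts mitosis, had 33.6 and 65.6 CPM at proestrus, 13.9 and 9.395 at estrus, 57.7 and 61.001 at metestrus and 14.8 and 37.1 at diestrus (1.64 ± 0.35, adjusted p = 0.0254). Ect2, needed for cytokinesis, had 15.998 and 38.8 CPM at proestrus, 4.65 and 2.84 at estrus, 33.6 and 37.1 at metestrus and 6.298 and 22.996 at diestrus. Ect2 differed by 2.07 ± 0.47, adjusted p = 0.0311. Aurka, a spindle kinase, and Prc1, a midzone protein, differed by 1.91 ± 0.44 and 2.02 ± 0.47 (adjusted p = 0.0316 and 0.0329). Proestrus 1 lay below diestrus 2 in Ect2 and Cdk1, while estrus and diestrus 1 were low. The summed level of the list was 662 and 1456 CPM at proestrus, 299 and 151 at estrus, 1136 and 1261 at metestrus and 202 and 796 at diestrus. The count of 13 was 3, 0, 0, 0, 0, 0 and 28 without proestrus 1, proestrus 2, estrus 1, estrus 2, metestrus 1, metestrus 2 and diestrus 2. The 13 called are 46.4% of the list, against 9.3% of all genes. By edgeR's unadjusted p under 0.05, 27 of the 28 were higher.

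Of 32 DNA replication genes, 14 (43.75%, against 9.3% of all genes) were called higher and 18 did not pass (median 1.05). Ccne2, a cyclin of the entry into S phase, had 5.18 and 8.68 CPM at proestrus, 2.15 and 1.86 at estrus, 15.2 and 14.3 at metestrus and 3.06 and 6.45 at diestrus (1.71 ± 0.29, adjusted p = 0.0149). The origin licensing factor Cdc6 had 9.28 and 16.7 CPM at proestrus, 3.702 and 4.904 at estrus, 26.7 and 31.8 at metestrus and 4.05 and 11.4 at diestrus. Cdc6 differed by 1.76 ± 0.36, adjusted p = 0.02396. Rrm2, the ribonucleotide reductase subunit, and Gins3, of the replicative helicase, differed by 1.73 ± 0.33 and 0.95 ± 0.18 (adjusted p = 0.0195 and 0.0188). In these genes metestrus was higher than proestrus. The count of 14 was 8, 0, 0, 0, 0, 0 and 31 without proestrus 1, proestrus 2, estrus 1, estrus 2, metestrus 1, metestrus 2 and diestrus 2, and 29 passed at an unadjusted p under 0.05. The calls of all 8 division genes named here ended without proestrus 2 or any 1 library of estrus or metestrus, at adjusted p up to 0.103, and that of Prc1 also without proestrus 1 (0.0543). DESeq2 and limma-voom on all 8 libraries kept the call of each.

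The cell cycle homology region, bound by the MuvB complexes that control mitotic genes, was searched as TTTGAA on either strand. It occurred in 21 of 26 promoters of the mitosis list (80.8%) and in 13.3% of those of DNA replication. The share was 12.7% for promoters of tested genes and 17.9% for all promoters. CCAAT occurred in 84.6% of the mitosis promoters. Over called genes with separated sides the letters TTTGAA occurred in 9.9% where proestrus and metestrus were higher and in 13.3% where estrus and diestrus were. The promoters of Cdk1 (chr10:69352863-69353162, minus strand; matches from bases -71 and -15) and Ect2 (chr3:27153829-27154128, minus strand; from -114 and 40) are shown with the matches in capitals.
Cdk1: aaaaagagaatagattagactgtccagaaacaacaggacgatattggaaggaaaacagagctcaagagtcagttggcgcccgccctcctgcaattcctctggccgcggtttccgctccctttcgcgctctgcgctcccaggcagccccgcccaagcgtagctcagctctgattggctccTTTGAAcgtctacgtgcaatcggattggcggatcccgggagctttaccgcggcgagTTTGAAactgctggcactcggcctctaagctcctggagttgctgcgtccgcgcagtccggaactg
Ect2: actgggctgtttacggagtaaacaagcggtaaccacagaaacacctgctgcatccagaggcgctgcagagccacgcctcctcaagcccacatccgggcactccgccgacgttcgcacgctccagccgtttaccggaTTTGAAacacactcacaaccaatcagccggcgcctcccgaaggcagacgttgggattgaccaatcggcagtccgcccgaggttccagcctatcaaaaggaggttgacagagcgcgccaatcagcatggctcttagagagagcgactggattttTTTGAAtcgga

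Cell cycle regulators of G1 were called in both directions, 26.3% of the list in each, against 9.3% and 9.42% of all genes. Of 19, the cyclins Ccnd2 and Ccnd3, with Rbl1, Cdkn2c and Mycl, were called higher in proestrus and metestrus, and Cdkn1b, Cdkn1c, Rbl2, Mxi1 and Cdk6 higher in estrus and diestrus. Ccnd3 had 143 and 135 CPM at proestrus, 72.5 and 74.96 at estrus, 130.5 and 109.98 at metestrus and 90.6 and 89.2 at diestrus (0.67 ± 0.08, adjusted p = 0.00688), with separated sides. Rbl2, a pocket protein that restrains division, had 32.05 and 32.9 CPM at proestrus, 48.8 and 47.2 at estrus, 45.1 and 47.6 at metestrus and 68.96 and 66.4 at diestrus. Rbl2 differed by -0.56 ± 0.07, adjusted p = 0.00677, where metestrus overlapped estrus. Mxi1, an antagonist of Myc, had 50.8 and 38.4 CPM at proestrus, 89.9 and 74.96 at estrus, 24.6 and 20.1 at metestrus and 59.1 and 41.96 at diestrus (-1.03 ± 0.16, adjusted p = 0.0113; call lost at 0.0601 without metestrus 2). Calls ended at 0.0526 to 0.0755, without proestrus 1, proestrus 2, estrus 2, metestrus 1 or metestrus 2 for Ccnd2 (0.69 ± 0.13), and at 0.0608 to 0.08201, without proestrus 1, proestrus 2, estrus 2, metestrus 1 or metestrus 2 for Cdkn1c (-1.37 ± 0.26). The 5 calls in each direction became 1 or 2 and 1 to 3 when a library of any stage but diestrus was left out. Bcl2, which blocks apoptosis, and Bcl2l11, the BIM protein that promotes it, were both higher in estrus and diestrus (-1.12 ± 0.11 and -0.80 ± 0.10; adjusted p = 0.00449 and 0.00688). Bcl2 ranged over 21.6 to 34.01 CPM in proestrus and metestrus and 36.2 to 82.1 CPM in estrus and diestrus, with no overlap.

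Of 25 ribosome biogenesis genes, 11 (44%, against 9.3% of all genes) were called higher in proestrus and metestrus. The list median was 0.48, with the stage means alternating in 3. Bop1, of the large subunit, had 85.99 and 93.9 CPM at proestrus, 50.1 and 57.9 at estrus, 109.9 and 106 at metestrus and 54.03 and 70.95 at diestrus. Bop1 differed by 0.76 ± 0.11, adjusted p = 0.00948. Nop2 and Nop56, nucleolar proteins that modify ribosomal RNA, were highest in metestrus (0.68 ± 0.11 and 0.79 ± 0.16; adjusted p = 0.0147 and 0.0216; ended at 0.0572 without proestrus 2, 0.0522 without estrus 1 and 0.0659 without metestrus 2 for Nop2, and 0.0556 to 0.0828, without proestrus 2, estrus 1, estrus 2, metestrus 1 or metestrus 2 for Nop56). The count was 2, 2, 3, 3, 1 and 19 without proestrus 2, estrus 1, estrus 2, metestrus 1, metestrus 2 and diestrus 2. Of 29 nuclear genes of oxidative phosphorylation, 10 (34.5%, against 9.3% of all genes) were called higher, all by small differences (median 0.24). Cyc1, cytochrome c1, and Atp5b, the ATP synthase beta subunit, had separated sides at 0.47 ± 0.07 and 0.40 ± 0.08 (adjusted p = 0.01202 and 0.02003), with proestrus highest. They ended at 0.0516 without proestrus 2, 0.0545 without estrus 1, 0.0514 without estrus 2 and 0.0578 without metestrus 1 for Cyc1, and at 0.0621 to 0.08998, without proestrus 1, proestrus 2, estrus 1, estrus 2, metestrus 1 or metestrus 2 for Atp5b. The list count was 1, 0, 0, 0, 0 and 1 without proestrus 1, proestrus 2, estrus 1, estrus 2, metestrus 1 and metestrus 2.

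**Figure D4:**
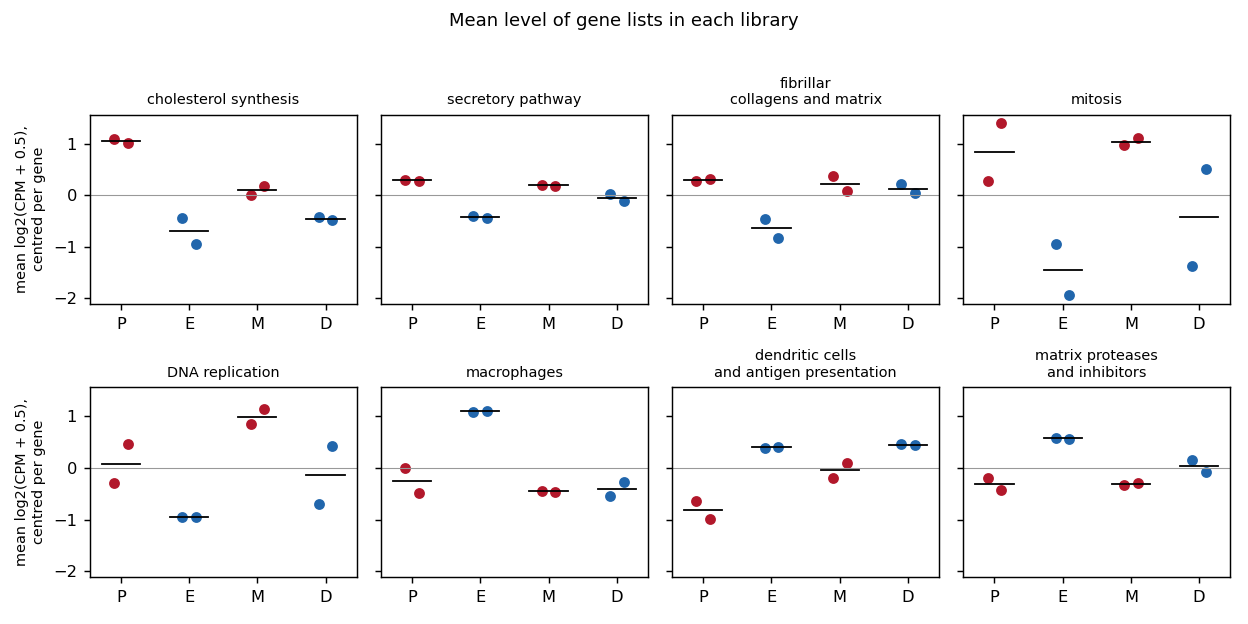
Mean of log2(CPM + 0.5) over the members of 8 gene lists after centring each gene, by stage on the x axis, with a point per library (red proestrus and metestrus, blue estrus and diestrus) and a line at the stage mean. Cholesterol and secretory genes alternate with close replicates, mitosis and replication genes spread within proestrus and diestrus, and macrophage genes are high in estrus only.

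Of 8 immune cell and immune response lists, those of macrophages, antigen presentation and complement are described here. In the other 5, each with 8 to 30 tested genes, 1 to 4 were called higher in estrus and diestrus and 0 to 2 higher in proestrus and metestrus. Of 19 macrophage genes, 12 were called higher in estrus and diestrus, against 9.42% of all genes, and 7 did not pass (median -0.68). Their difference was -1.42 between proestrus and estrus and -0.12 between metestrus and diestrus, and in none of the 12 were the sides separated. Adgre1, the F4/80 antigen, had 33.2 and 26.8 CPM at proestrus, 120.1 and 111 at estrus, 35.3 and 38.7 at metestrus and 35.2 and 48.9 at diestrus (-1.07 ± 0.13, adjusted p = 0.00691). Csf1r, the CSF1 receptor, had 68.6 and 41.2 CPM at proestrus, 221 and 279.8 at estrus, 79.9 and 74.8 at metestrus and 78.7 and 87.6 at diestrus. Csf1r differed by -1.15 ± 0.17, adjusted p = 0.0109 and lost its call at 0.05403 without metestrus 1 and 0.0601 without metestrus 2. In both, estrus stood alone and diestrus was near metestrus. The list summed to 1492 and 981 CPM at proestrus, 3108 and 3273 at estrus, 1086 and 1012 at metestrus and 965 and 1325 at diestrus, and its count of 12 was 4, 6, 3, 2 and 2 without proestrus 2, estrus 1, estrus 2, metestrus 1 and metestrus 2.

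Of 14 dendritic cell and antigen presentation genes, 9 were called higher in estrus and diestrus, 11 had alternating stage means and 7 had separated sides (median -0.91; -1.34 and -0.42 between the same stages). Itgax, the integrin CD11c, had 4.82 and 3.37 CPM at proestrus, 15.8 and 15.1 at estrus, 7.098 and 9.07 at metestrus and 10.7 and 12.5 at diestrus (-1.22 ± 0.17, adjusted p = 0.008997). Cd74, the invariant chain of MHC class II, had 216 and 253 CPM at proestrus, 488 and 861 at estrus, 476 and 432 at metestrus and 654 and 619.8 at diestrus. Cd74 differed by -1.01 ± 0.18, adjusted p = 0.0176. H2-Ab1, a class II chain, had 85.6 and 92.9 CPM at proestrus, 183 and 363 at estrus, 181 and 169 at metestrus and 243 and 235 at diestrus (-1.03 ± 0.20, adjusted p = 0.0217). Ciita, the master regulator of class II, and H2-DMa, which loads peptides, differed by -0.92 ± 0.16 and -0.81 ± 0.13 (adjusted p = 0.0146 and 0.0123). Proestrus was lowest, and metestrus lay under estrus and diestrus. The 9 called genes are 64.3% of the list, against 9.42% of all genes. The count of 9 was 3, 2, 5, 3, 1 and 1 without proestrus 1, proestrus 2, estrus 1, estrus 2, metestrus 1 and metestrus 2. Calls ended at 0.0572 to 0.0805, without proestrus 1, proestrus 2, metestrus 1 or metestrus 2 for Cd74, at 0.0665 to 0.0897, without proestrus 1, proestrus 2, metestrus 1 or metestrus 2 for H2-Ab1, at 0.0525 to 0.0672, without proestrus 2, estrus 2, metestrus 1 or metestrus 2 for Ciita, and at 0.0502 to 0.0618, without estrus 1, estrus 2, metestrus 1 or metestrus 2 for H2-DMa.

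Of 23 complement genes, 10 (43.5%, against 9.42% of all genes) were called higher in estrus and diestrus (median -0.68). Masp1, a protease of the lectin pathway, had 6.77 and 5.16 CPM at proestrus, 16.4 and 15.95 at estrus, 4.55 and 6.203 at metestrus and 12.2 and 24.5 at diestrus. Masp1 differed by -1.603 ± 0.25, adjusted p = 0.0123 and lost its call at 0.0533 without proestrus 2, 0.0604 without metestrus 1 and 0.0527 without metestrus 2. C2 had 10.8 and 5.86 CPM at proestrus, 39.2 and 31.1 at estrus, 5.18 and 7.61 at metestrus and 8.41 and 7.51 at diestrus (-1.198 ± 0.23, adjusted p = 0.0213; call lost at 0.0517 to 0.0788, without proestrus 2, estrus 1, estrus 2, metestrus 1 or metestrus 2). C1qb, a macrophage product that is in both lists, had 97.6 and 72.1 CPM at proestrus, 209.6 and 245 at estrus, 95.3 and 80.04 at metestrus and 75.8 and 92.9 at diestrus. C1qb differed by -0.68 ± 0.14, adjusted p = 0.0224 and lost its call at 0.0607 to 0.0907, without proestrus 2, estrus 1, estrus 2, metestrus 1 or metestrus 2. Of the exonic bases of C2, 46.9% are shared with other genes. C2 and C1qb were high in estrus and not in diestrus, whereas Masp1 was high in both. Masp1 is also made by the liver, with the liver sums given above. The part of liver RNA in the values of Masp1, C2 and the rest of this list was not tested. The count of 10 was 0, 2, 3, 0 and 0 without proestrus 2, estrus 1, estrus 2, metestrus 1 and metestrus 2. The part of cell numbers in these immune results was not tested.

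**Figure D5:**
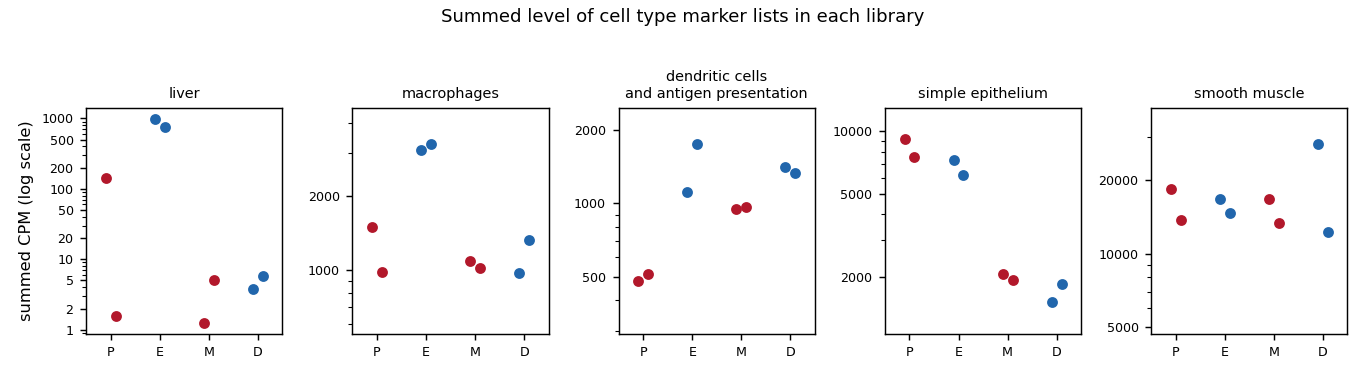
Summed CPM (log scale) of 5 cell type marker lists in each library, by stage on the x axis (red proestrus and metestrus, blue estrus and diestrus). Liver genes are high in estrus and in proestrus 1, macrophage genes in estrus, epithelial genes in proestrus and estrus, and smooth muscle genes in diestrus 1.

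Hormone response genes did not move as a block. Of 22 uterine estrogen response genes, 7 were called higher in proestrus and metestrus and 3 (Sox4, Egr1 and Clca3b) higher in estrus and diestrus. The shares are 31.8% and 13.6%, against 9.3% and 9.42% of all genes. Gadd45g, a growth arrest gene, had 163 and 157 CPM at proestrus, 37.4 and 26.999 at estrus, 122 and 123 at metestrus and 37.97 and 13.8 at diestrus (2.27 ± 0.31, adjusted p = 0.008302), with separated sides. Igf1, the main estrogen-induced growth factor of the stroma, had 415 and 399.6 CPM at proestrus, 44.3 and 47.5 at estrus, 467 and 549 at metestrus and 442 and 611 at diestrus. Igf1 differed by 1.55 ± 0.13, adjusted p = 0.00302, low in estrus alone. Padi4, a peptidylarginine deiminase, had 127 and 112 CPM at proestrus, 38.4 and 37.1 at estrus, 24.998 and 18.5 at metestrus and 11.6 and 7.11 at diestrus (1.44 ± 0.17, adjusted p = 0.00686), falling around the cycle from proestrus. Sox4, a transcription factor of which 54.6% of exonic bases are shared with an opposite-strand gene, had 159 and 144 CPM at proestrus, 912 and 1168 at estrus, 132 and 114 at metestrus and 149 and 233 at diestrus. Sox4 differed by -1.71 ± 0.17, adjusted p = 0.00437, high in estrus alone. The count of 7 was 4, 4, 4 and 4 without estrus 1, estrus 2, metestrus 1 and metestrus 2, and the 3 of the other direction became 1 to 5 without 1 library.

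Of 20 progesterone and glucocorticoid response genes, 7 were called higher in estrus and diestrus and Hsd11b2 higher in proestrus and metestrus (median -0.54). Their shares are 35% and 5%, against 9.42% and 9.3% of all genes. Klf9, a progesterone receptor partner, had 64.97 and 92.3 CPM at proestrus, 239 and 224 at estrus, 104 and 104 at metestrus and 278 and 178 at diestrus (-1.34 ± 0.17, adjusted p = 0.00757), with separated sides. Zbtb16, a zinc finger factor, had 3.44 and 3.87 CPM at proestrus, 4.95 and 7.07 at estrus, 4.96 and 4.06 at metestrus and 132 and 56.9 at diestrus. Zbtb16 differed by -2.55 ± 0.30, adjusted p = 0.00617. Fst, the activin antagonist follistatin, had 8.46 and 4.32 CPM at proestrus, 8.95 and 7.95 at estrus, 6.61 and 11.8 at metestrus and 83.4 and 73.5 at diestrus (-1.75 ± 0.26, adjusted p = 0.0109). Sult1d1, a sulfotransferase, had 3.64 and 5.16 CPM at proestrus, 19.4 and 12.9 at estrus, 23.1 and 44.5 at metestrus and 181 and 166 at diestrus. Sult1d1 differed by -2.11 ± 0.25, adjusted p = 0.00686. These 3 were highest in diestrus. Hsd11b2, which inactivates glucocorticoid, had 576 and 788 CPM at proestrus, 26.1 and 18.3 at estrus, 632 and 529 at metestrus and 771 and 579 at diestrus (2.36 ± 0.19, adjusted p = 0.00259). It was low in estrus and high in the other 3 stages. The count of 7 was 4, 4 and 11 without estrus 2, metestrus 2 and diestrus 1.

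Retinoic acid genes were called in both directions, 26.3% of the list in each, against 9.3% and 9.42% of all genes. Of 19, 5 were called higher in proestrus and metestrus (Aldh1a2, Dhrs9, Crabp1, Crabp2 and Rara) and 5 higher in estrus and diestrus (Cyp26a1, Cyp26b1, Dhrs3, Rbp4 and Rxra). Aldh1a2, which makes retinoic acid, had 813 and 750.3 CPM at proestrus, 86.3 and 87.5 at estrus, 246 and 251.2 at metestrus and 145 and 184 at diestrus. Aldh1a2 differed by 1.88 ± 0.10, adjusted p = 0.00119, separated and highest in proestrus. The binding protein gene Crabp2 had 84.3 and 63.97 CPM at proestrus, 12.01 and 5.06 at estrus, 11.4 and 14.7 at metestrus and 0.495 and 3.03 at diestrus (3.01 ± 0.50, adjusted p = 0.0141). Its relative Crabp1 had 34.97 and 38.5 CPM at proestrus, 1.0005 and 0.671 at estrus, 19.2 and 19.5 at metestrus and 0.2699 and 8.07 at diestrus. Crabp1 differed by 3.83 ± 0.81, adjusted p = 0.0252. Rara, a receptor, differed by 0.70 ± 0.10 (adjusted p = 0.00861). Dhrs3, which turns retinal back into retinol, had 58.5 and 48.8 CPM at proestrus, 120.2 and 171 at estrus, 44.997 and 48.4 at metestrus and 91.05 and 68.4 at diestrus (-1.11 ± 0.15, adjusted p = 0.00874), the reverse of Aldh1a2. Calls ended at 0.0544 without estrus 2, 0.05405 without metestrus 1 and 0.0621 without metestrus 2 for Crabp2, at 0.0602 to 0.0964, without proestrus 1, proestrus 2, estrus 1, estrus 2, metestrus 1 or metestrus 2 for Crabp1, and at 0.0503 without metestrus 1 for Dhrs3. The count of 5 higher in proestrus and metestrus was 3, 2, 3, 2 and 8 without estrus 1, estrus 2, metestrus 1, metestrus 2 and diestrus 2. That of 5 higher in estrus and diestrus was 2, 1, 1, 1, 0 and 1 without proestrus 1, proestrus 2, estrus 1, estrus 2, metestrus 1 and metestrus 2.

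Insulin and growth factor signalling genes were also called in both directions. Of 15 insulin-like growth factor genes, 3 (20%) were called higher in proestrus and metestrus and 4 (26.7%) in estrus and diestrus. For 18 fibroblast growth factor genes these were 4 (22.2%) and 1 (5.56%), against 9.3% and 9.42% of all genes. The 4 insulin-like calls became fewer without proestrus 2 or any 1 library of estrus or metestrus. The 4 fibroblast growth factor calls became fewer without estrus 1. Irs1, an adaptor of the insulin and IGF1 receptors, had 47.3 and 40.2 CPM at proestrus, 21.5 and 23.5 at estrus, 77.3 and 82.7 at metestrus and 63.8 and 63.5 at diestrus. Irs1 differed by 0.64 ± 0.08, adjusted p = 0.00757, with proestrus below diestrus. Its relative Irs2 had 5.33 and 5.11 CPM at proestrus, 53.8 and 45.8 at estrus, 6.696 and 7.23 at metestrus and 32.6 and 10.6 at diestrus (-2.44 ± 0.34, adjusted p = 0.00878; call lost at 0.0521 without metestrus 1 and 0.0534 without metestrus 2), with separated sides. Igf1r, Igf2r and Igfbp3 were called higher in estrus and diestrus too. Fgf2, a fibroblast growth factor, had 44.2 and 43.03 CPM at proestrus, 13.96 and 14.7 at estrus, 33.4 and 30.97 at metestrus and 18.9 and 15.4 at diestrus. Fgf2 differed by 1.26 ± 0.10, adjusted p = 0.00259. Spry4, a feedback inhibitor that growth factor signals induce, had 20.6 and 21.3 CPM at proestrus, 8.304 and 8.78 at estrus, 16.2 and 23.8 at metestrus and 12.6 and 13.3 at diestrus (0.96 ± 0.15, adjusted p = 0.0109; call lost at 0.0506 without estrus 1). Both were separated, with proestrus and metestrus high.

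Of 31 Wnt pathway genes, 8 were called higher in estrus and diestrus and 2 (Axin2 and Wnt5a) in the other direction (median -0.37). In shares this is 25.8% and 6.45%, against 9.42% and 9.3% of all genes. Rspo3, an amplifier of Wnt signals, had 16.8 and 24.4 CPM at proestrus, 161 and 138 at estrus, 28.8 and 27.8 at metestrus and 47.7 and 44.3 at diestrus. Rspo3 differed by -1.78 ± 0.13, adjusted p = 0.00259. Wnt2, a ligand, had 0.461 and 0.844 CPM at proestrus, 5.803 and 7.54 at estrus, 2.41 and 2.27 at metestrus and 4.54 and 3.23 at diestrus (-2.04 ± 0.26, adjusted p = 0.007299). Both were separated, with estrus highest and diestrus second. The count of 8 was 4, 5, 3, 4, 3 and 3 without proestrus 1, proestrus 2, estrus 1, estrus 2, metestrus 1 and metestrus 2, and the 2 of the other direction became 0 to 6 without 1 library. Of 26 prostaglandin and contraction receptor genes, 7 were called higher in estrus and diestrus and 3 in the other direction (median -0.67). The shares here are 26.9% and 11.5%, against 9.42% and 9.3% of all genes. Beside Ptger2, the receptor gene Ptger3 had 16.2 and 13.9 CPM at proestrus, 14.6 and 18.4 at estrus, 33.9 and 27.98 at metestrus and 113 and 92.9 at diestrus. Ptger3 differed by -0.93 ± 0.13, adjusted p = 0.00861, high in diestrus alone. Hpgd, which inactivates prostaglandins, had 37.99 and 45.4 CPM at proestrus, 93.2 and 108 at estrus, 41.1 and 36.7 at metestrus and 49.1 and 44.9 at diestrus (-0.77 ± 0.10, adjusted p = 0.00741), high in estrus alone. Ptgds stayed at 1.46 CPM or below (-1.98 ± 0.31, adjusted p = 0.0123; call lost at 0.0531 without metestrus 1 and 0.0585 without metestrus 2). The count of 7 was 4, 4, 3, 3 and 12 without proestrus 2, estrus 1, metestrus 1, metestrus 2 and diestrus 2, and the 3 of the other direction became 0 to 4 without 1 library.

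Of 20 epithelial transport genes, 8 were called higher in estrus and diestrus and 1, Cftr, in proestrus and metestrus (median -0.73). These are 40% and 5% of the list, against 9.42% and 9.3% of all genes. Aqp1, a water channel of vessels, had 207 and 179 CPM at proestrus, 502 and 559.5 at estrus, 261 and 243 at metestrus and 745 and 374 at diestrus. Aqp1 differed by -1.31 ± 0.21, adjusted p = 0.0134 and lost its call at 0.0525 to 0.0686, without proestrus 2, estrus 2, metestrus 1 or metestrus 2. Scnn1b, a subunit of the epithelial sodium channel, had 11.3 and 3.47 CPM at proestrus, 41.1 and 46.2 at estrus, 11.8 and 11.1 at metestrus and 23.4 and 20.02 at diestrus (-1.75 ± 0.33, adjusted p = 0.0195; call lost at 0.0649 without estrus 1, 0.0648 without estrus 2, 0.0779 without metestrus 1 and 0.0857 without metestrus 2). Both had separated sides. The count of 8 was 5, 2, 1, 0, 1 and 0 without proestrus 1, proestrus 2, estrus 1, estrus 2, metestrus 1 and metestrus 2. Of 19 circadian clock genes, 7 were called higher in estrus and diestrus and 3 in the other direction. Their shares are 36.8% and 15.8%, against 9.42% and 9.3% of all genes. The clock repressor gene Nr1d1 had 33.9 and 44.8 CPM at proestrus, 120 and 92.8 at estrus, 28.03 and 16.9 at metestrus and 51.1 and 35.1 at diestrus. Nr1d1 differed by -1.19 ± 0.22, adjusted p = 0.0176. Its relative Nr1d2 had 61.99 and 63.5 CPM at proestrus, 76.4 and 78.8 at estrus, 29.9 and 24.8 at metestrus and 51.1 and 48.9 at diestrus (-0.59 ± 0.08, adjusted p = 0.00913). Per2, which peaks at another time of day, had 35.5 and 36.7 CPM at proestrus, 10.4 and 16.2 at estrus, 44.997 and 58.4 at metestrus and 38.6 and 20.4 at diestrus. Per2 differed by 1.13 ± 0.24, adjusted p = 0.0258. The output gene Dbp and the activator Rora differed by -0.78 ± 0.15 and -1.21 ± 0.20 (adjusted p = 0.0217 and 0.0132). Nr1d2 kept its call without each library; the others ended at 0.0562 without proestrus 1, 0.0508 without proestrus 2, 0.0675 without estrus 1 and 0.0621 without metestrus 2 for Nr1d1, 0.0543 to 0.0954, without proestrus 1, proestrus 2, estrus 1, estrus 2, metestrus 1 or metestrus 2 for Per2, 0.0548 to 0.0839, without proestrus 1, proestrus 2, estrus 1, estrus 2, metestrus 1 or metestrus 2 for Dbp, and 0.0549 without proestrus 2, 0.0549 without estrus 1, 0.0584 without metestrus 1 and 0.0659 without metestrus 2 for Rora. The labels used here give no hour of collection. The count of 7 was 2, 1, 1, 3, 2, 1 and 11 without proestrus 1, proestrus 2, estrus 1, estrus 2, metestrus 1, metestrus 2 and diestrus 2, and the 3 of the other direction became 0 to 4 without 1 library.

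Neat1 and Malat1, long RNAs kept in the nucleus and sometimes read as a sign of RNA quality, were higher in estrus and diestrus. Neat1 had 50.2 and 45.4 CPM at proestrus, 254 and 149 at estrus, 33.8 and 50.5 at metestrus and 85.8 and 53.7 at diestrus (-1.402 ± 0.24, adjusted p = 0.0151; call lost at 0.0618 without proestrus 2, 0.0645 without metestrus 1 and 0.0512 without metestrus 2). Malat1 had 104 and 108 CPM at proestrus, 419 and 233 at estrus, 153 and 217 at metestrus and 239 and 191 at diestrus. Malat1 differed by -0.92 ± 0.21, adjusted p = 0.0317 and lost its call at 0.0743 to 0.105, without proestrus 1, proestrus 2, estrus 1, metestrus 1 or metestrus 2. Their part in the other results was not tested. Some lists showed no call. Of 19 smooth muscle genes and 31 cytosolic ribosomal protein genes edgeR called 0, with a median of -0.22 for smooth muscle. The ribosomal protein median was 0.004, made of opposite parts that cancel in this contrast. It was 0.31 for proestrus minus estrus and -0.30 for metestrus minus diestrus. At an unadjusted p under 0.05, 7 smooth muscle genes were lower in proestrus and metestrus and 2 ribosomal protein genes were higher. With all libraries, other settings called up to 5 and 2. Without 1 library the calls reached 10 smooth muscle genes, and 1 ribosomal protein gene in each direction. The smooth muscle list summed to 18362 and 13762 CPM at proestrus, 16818 and 14734 at estrus, 16743 and 13308 at metestrus and 28167 and 12289 at diestrus, so diestrus 1 stood apart.

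The 2 falls of the cycle, from proestrus to estrus and from metestrus to diestrus, were then tested against each other. Of the 2499 called genes with alternating means, 1994 had the larger difference between proestrus and estrus and 505 between metestrus and diestrus. The test of this difference passed for 73 genes (0.403%) over all tested, of which 63 were called in the main comparison. Of the 29 with alternating means, 28 had the larger difference between proestrus and estrus. The count of 73 was 6 and 5 without proestrus 1 and 2, 11 and 0 without estrus 1 and 2, 0 and 0 without metestrus 1 and 2, 431 without diestrus 1 and 1070 without diestrus 2. With all libraries, 2789 genes had an unadjusted p under 0.05 by edgeR, and DESeq2 called 960 and limma-voom 62. Aldh1a2 and Ppp2r2c are examples among alternating genes. Aldh1a2 differed by -3.17 ± 0.15 from proestrus to estrus and by -0.59 ± 0.14 from metestrus to diestrus, and Ppp2r2c by -4.25 ± 0.18 and -1.62 ± 0.15 (test of the difference in size: 2.58 ± 0.20, adjusted p = 0.0149 and 2.63 ± 0.22, adjusted p = 0.0152). The test did not pass for Pgr (1.33 ± 0.20, adjusted p = 0.0548), Nrk (2.44 ± 0.43, adjusted p = 0.0724) or Plod2 (0.91 ± 0.17, adjusted p = 0.0793), whose values also lay toward the larger first fall.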

How the data were processed

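Total RNA of 8 uterus samples went into stranded libraries of messenger RNA, per the labels' protocols. The deposited values are read counts per gene, whole numbers that the authors did not normalise. STAR, featureCounts of the Subread package and the build GRCm38 (mm10) are named per the submitters' processing notes; for their versions, the strand setting and the annotation release, nothing is given in the sources used here. All 8 columns were used, grouped by the stage in the labels. Symbols and positions came from GENCODE M21, in which 52058 of 52308 identifiers were found.

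Genes were filtered by filterByExpr by stage and scaled by TMM (factors 0.898 to 1.11). Quasi-likelihood models of edgeR 4.0.16 in R 4.3.3 had 4 residual and 2.70 prior degrees of freedom (biological coefficient of variation 0.250), F tests and Benjamini-Hochberg adjustment over all tested genes. The SE is the difference divided by the square root of F. The contrast was (proestrus + metestrus)/2 minus (estrus + diestrus)/2. Sides are called separated where all 4 libraries of one lie above all 4 of the other. List figures use log2(CPM + 0.5). The procedure was tested on simulated counts with planted alternating differences and no other difference between stages. That test does not cover genes with 1 stage apart or the wider spread within diestrus. Total counts of 17863546 to 21896786 limit precision for genes under about 1 CPM.

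Named genes were, among called and separated genes with a mean of 5 CPM on the higher side, the 12 largest differences and the 6 smallest p in each direction, then the 15 all-step genes with the smallest largest-step p, all steroid receptors and FAM3 genes, and up to 5 members of each list by p; clone-like names were skipped. Of the genes it takes, 144 were examined one by one, not all of which are reported. Genes outside the rule, including list members named without values, were chosen after their values were seen. The comparison, lists and members were chosen with earlier results of these data known. Alternatives were DESeq2 size factors, DESeq2 1.42.0, limma-voom (limma 3.58.1), 2 other filters, a minimum fold of 2 (glmTreat), 2 groups of 4 without stage, a replicate block and each library left out.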

Additional observations from a re-analysis of the deposited data

Results flagged for a closer look

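Among the 144 genes examined one by one, each side of 4 libraries was checked for a library whose gap to its nearest neighbour took a share of the whole range above Dixon's critical value for 4 samples. Of 288 such groups 6 were picked out (2.08%). The rate of 1 in 20 for this critical value holds for 4 values of 1 population. Each group here joins libraries of 2 stages, so the 2 rates cannot be compared. Among estrus and diestrus libraries these were diestrus 2 for Inmt (0.890), where it was low, and diestrus 1 for Nr3c1 (0.830), where it was high, and for P4ha3 (0.876), where the gap marks it as the high one of the 4. Among proestrus and metestrus libraries they were proestrus 1 for Cwh43 (0.873) and Ect2 (0.838) and proestrus 2 for Scnn1b (0.948).

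In 13 named genes the difference between proestrus and estrus and that between metestrus and diestrus were unequal by the edgeR test of the difference itself. The first was the more positive in Has2 (5.72), Ngfr (5.17), Hsd11b2 (5.16), Igf1 (3.20), Fkbp14 (2.96), Ppp2r2c (2.63) and Aldh1a2 (2.58), as log2 values of the one minus the other. It was the more negative in Gpnmb (-5.16), Mmp11 (-4.12), Trim63 (-3.75), Bdh2 (-2.44), Rspo3 (-2.16) and Gem (-1.44). In each of the 13 the larger change was the one from proestrus to estrus.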

How the results depend on the processing

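The main count of 3392 was 3422 with DESeq2 size factors, 4402 by DESeq2, 3363 by limma-voom, 3576 without a filter and 3403 with a filter at 1 CPM. A minimum fold of 2 left 70 (39 and 31 by direction), and 2 groups of 4 without stage left 9 (6 and 3). With that minimum the 4 steps called 220, 1017, 3 and 673 genes in cycle order, the other pairing 804, all 4 steps together 1 and the difference between the 2 falls 11. By DESeq2 the last 3 counts that depend on diestrus against metestrus were 992 for that step, 244 for all steps and 960 for the falls, and without a filter 451, 128 and 456. Leaving out each library gave 569 to 5451 calls (281 to 2793 and 288 to 2658 by direction), 459 to 4760, 2183 to 8243, 0 to 1985 and 1246 to 4648 at the 4 steps, 3724 to 7649 in the other pairing, 0 to 499 for all steps and 0 to 1070 for the falls; a stage then rests on 1 library, assumed to vary like the others. Of 135 calls of genes examined one by one, 102 ended with the minimum fold, 127 with 2 groups, 4 by limma-voom and 1 to 52 without a library. Without a library the direction turned in Gper1 (-0.22 to 0.94), Fam3a (-0.25 to 0.10) and Nr3c1 (-0.018 to 0.17), none of them called. The cause was not tested.

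Replicate numbers are shared between stages. Same-numbered libraries deviated together only in part (correlations -0.0539 to 0.172). These values cannot tell whether such libraries share more than the number, which was not tested. With the replicate block 3698 genes were called (1954 and 1744), 27 at all steps, 61 between diestrus and metestrus and 53 between falls.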

Other observations

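Some lists not described above had calls toward estrus and diestrus only. Over all genes, 9.42% were called in that direction and 9.3% in the other. Among these lists were uterine glands (3 of 13 tested, median -1.40), pericytes (3 of 8, -0.45), Hox genes (4 of 15, -0.51) and apoptosis (4 of 23, -0.25). Ciliated cells (3 of 11), lymphatic endothelium (1 of 7), mesothelium (1 of 10), liver (1 of 10) and secreted defence proteins (1 of 16) were others. A list with 1 call can only have it in 1 direction. Mesothelium and liver, at 10%, and secreted defence proteins, at 6.25%, were near or below the share over all genes. The gland list summed to 5632 and 2732 CPM at proestrus, 11708 and 10370.3 at estrus, 714 and 667 at metestrus and 7856 and 506 at diestrus, so that diestrus 1 stood apart from diestrus 2. The 3 called gland genes were Calca, Wfdc3 and Ttr. Calca stayed at 1.11 CPM or below, and Ttr is also in the liver list. Among the 10 not called, Foxa2 had 8.15 and 5.37 CPM at estrus and 15.5 and 16.6 at metestrus. Cxcl15, also not called, had 1.30 and 1.08 CPM at estrus and 36.9 and 43.5 at metestrus. The count of the gland list was 1, 1, 0, 1, 0 and 7 without proestrus 2, estrus 1, estrus 2, metestrus 1, metestrus 2 and diestrus 2. The other counts were 1 and 1 without metestrus 1 and metestrus 2 for pericytes, 1, 1, 0, 0, 0 and 7 without proestrus 1, estrus 1, estrus 2, metestrus 1, metestrus 2 and diestrus 2 for Hox genes, and 2 and 2 without metestrus 1 and metestrus 2 for apoptosis. In the fits without diestrus 1 or 2, 1 and 2 gland genes and 1 and 4 apoptosis genes were called in the other direction. BMP, activin and TGF beta genes had 5 calls toward proestrus and metestrus and 1 toward estrus and diestrus (25 tested; median -0.09), and the 5 became 2, 3, 3, 2, 2, 2 and 8 without proestrus 1, proestrus 2, estrus 1, estrus 2, metestrus 1, metestrus 2 and diestrus 2. The 1 became 3 and 5 without diestrus 1 and 2. Glycolysis genes had 3 and 0 of 19 (0.05). The 3 became 1 without proestrus 2, and 0 without proestrus 1 or any 1 library of estrus or metestrus, while the 0 became 3 and 1 without diestrus 1 and 2. Fatty acid synthesis genes had 5 and 4 of 18 (0.34). These became 0 and 1 without any 1 library of estrus or metestrus, and 2 and 2 without either library of proestrus. The 4 became 2 without diestrus 1.

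The letters TGTTTAC, a forkhead factor motif, occurred on either strand in 35 of 773 promoters (4.53%) of called genes higher in estrus and diestrus with separated sides, in 12 of 707 (1.7%) of those higher in proestrus and metestrus, in 2.81% of the promoters of tested genes and in 3.65% of all promoters. These shares are descriptions, and a match is not a site. A pair of genes high in estrus and diestrus, chosen after their values were seen, are Sesn1, which restrains mTOR signalling, with 33.7 and 36.6 CPM at proestrus, 82.2 and 72.4 at estrus, 29.6 and 28.6 at metestrus and 152 and 80.5 at diestrus, and Pik3ip1, an inhibitor of PI3 kinase, with 16.7 and 15.4, 110 and 114, 9.64 and 7.14, and 36.1 and 23.4 CPM over the same stages. Both passed the test at all 4 steps.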
